A study of Mus musculus with 24 samples.

Results

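The cells described here are the Lamp5 interneurons of mouse motor cortex, chosen from single-cell 3' RNA libraries by their counts of 7 genes. A cell was kept with at least 1000 UMIs (unique molecular identifiers, each counting 1 captured RNA molecule), at least 500 genes and at most 20% mitochondrial UMIs. It then needed at least 2 UMIs of Gad1 and Gad2 together, at most 1 of Slc17a7, at least 2 of Lamp5, at most 1 of Pvalb, and at most 4 each of Sst and Vip. This gate held 1088 cells, which was 2.16% of the 50361 motor cortex cells passing the cell filter and 22.9% of the 4741 cells passing its GABAergic steps (Gad1 plus Gad2 and Slc17a7 only). The 23 libraries of the series with a count matrix analysed here, of 24, held 103715 passing cells. The 7 gate genes chose the members, so their levels, and every difference of the members from other interneurons that follows, are given as descriptions with no test.

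Interneurons are the inhibitory neurons of the cortex, which release GABA onto nearby cells. The Lamp5 class takes its name from a membrane protein of the LAMP family and includes the neurogliaform cells, whose dense local axons release GABA into the surrounding tissue and produce slow inhibition through GABA-A and GABA-B receptors. Many of these cells sit in layer 1, make neuropeptide Y, the extracellular matrix protein reelin or the secreted factor Ndnf, and arise from the caudal ganglionic eminence or the preoptic area of the embryo, while a smaller set carries the medial ganglionic eminence factor Lhx6.

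All motor cortex mice were Fos-CreER::Ai9, a line in which a drug-inducible recombinase under the control of Fos switches on the reporter tdTomato, and all received 4-hydroxytamoxifen (4-OHT), which activates the recombinase. Early mice were trained in a forelimb reaching task for 2 days and late mice for 8 days, control mice received 4-OHT without training, and tissue was taken 3 days after labelling. Each pool came from 2 mice, marked male and female in the labels, and was divided by hemisphere into 2 libraries, named contralateral and ipsilateral in trained mice and left and right in controls. The 12 libraries thus form 6 pools, 2 for each stage, called control 1, control 2, early 1, early 2, late 1 and late 2, and the pool was the unit of replication. The reporter marks cells in which Fos was active around the time of 4-OHT, in any cell type.

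The pools held 140, 192, 209, 196, 153 and 198 Lamp5 cells in that order, with 802818 to 3055432 UMIs summed over the Lamp5 cells of a pool. The median Lamp5 cell had 7800 UMIs and 3566 genes, with pool medians from 4982.5 UMIs (control 1) to 14715 UMIs (early 1). The labels mention 2 kit versions without assigning them, and the rate of barcodes shared between libraries separated control 1 and late 1 (called kit class A here) from the other 4 pools (kit class B). The labels also carry 4 batch codes, 1 shared by control 1 and late 1, 1 by control 2 and early 1, and 1 each for early 2 and late 2. In control 1, 5 of 4939 passing cells had a UMI of Xist, a female-specific RNA, against 2452 to 6908 cells in each of the other pools, so the library labels of male and female were not matched there. The left library of control 1 gave 11 Lamp5 cells of 26 GABAergic cells. Of the members, 16 had a barcode that also occurs in another motor cortex library, no barcode was shared by 2 members, 32 (2.94%, against 4.72% of all passing cells) were scored as doublets, and 16 held UMIs of both Xist and a Y-linked gene.

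The name was checked on markers outside the gate, and the gate genes are described first. Lamp5 (ENSMUSG00000027270, chromosome 2, 136052239 to 136069917, + strand, GRCm38) had a median of 6 UMIs and a maximum of 36 UMIs per member. Although the gate allowed up to 4 UMIs of Sst and Vip, no member had more than 2 of Sst or 3 of Vip, and 996 members had neither. Of the 9 markers in the Lamp5 list that the gate did not use (Ndnf, Npy, Reln, Cplx3, Sv2c, Kit, Id2, Slc32a1 and Hapln1), all were at 10 or more CPM in every pool. In all, 7972 genes outside the gate reached that level, so it shows presence and does not bear on the name. CPM (counts per 1000000) is a gene's UMIs over all UMIs of the gated cells of a pool, scaled to 1000000.

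At the edge of the gate, 148 members had exactly 2 Lamp5 UMIs, and 173 cells met every other condition with 1. In CPM, the cells just inside held 379.6 of Ndnf, 9108 of Npy, 490 of Cplx3 and 517 of Kit. The cells just outside held 273.2 of Ndnf, 4937 of Npy, 398 of Cplx3 and 296 of Kit, so the same markers were present there. Reln went the other way, at 628 just outside, 485 just inside and 454 in members with 3 or more Lamp5 UMIs. The cells outside also held 105.2 of Calb2, which codes for the calcium-binding protein calretinin of other interneurons, and 12.4 of Sncg, where the cells inside held 1.19 and 0. Their median depth was 4766 UMIs, against 5137 UMIs inside the edge and 8306 UMIs in the 940 members with 3 or more Lamp5 UMIs.

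For the descriptions that follow, the members were set beside cells gated on Pvalb (232 cells), Sst (539) and Vip (1647) in the same libraries, which had at most 1 Lamp5 UMI. A gene is called higher below where all 6 Lamp5 pools lay above all 18 pools of these 3 gates, and lower where all lay below. Over all 26447 features with a UMI in any of these cells, 1.18% were higher and 0.563% lower by this rule. Those features include many with few UMIs, which cannot separate the pools, and the members were chosen on this contrast, so nothing is read from a list's count against that share.

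Of the 9 Lamp5 markers, 7 were higher: Ndnf, Reln, Cplx3, Sv2c, Kit, Id2 and Hapln1. Ndnf (ENSMUSG00000049001, chromosome 6, 65671590 to 65712326), a secreted neurotrophic factor, was at 234, 367, 410, 446, 172 and 455 CPM in the order of pools above. Its median was 0 in Pvalb, 4.25 in Sst and 0.310 in Vip cells. Both class A pools had less Ndnf than the 4 other pools, as they had less Gad1 (1799 and 1780, against 2769 to 3131) and less Gad2 (2764 and 2253, against 3581 to 3872). For Cplx3 the order was the reverse, with 650 and 816 in class A and 455 to 595 in the others. Reln, which codes for reelin, had a median of 482 CPM in Lamp5 pools, 227 in Sst, 47.7 in Vip and 8.03 in Pvalb cells. Kit, a receptor tyrosine kinase, had a median of 593, with 278 in Vip cells and under 14 in the other 2 gates. Id2, an inhibitor of basic helix-loop-helix transcription factors, had a median of 959, against 150 in Vip cells.

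The other 2 markers were not higher by the rule. Npy (ENSMUSG00000029819, chromosome 6, 49822710 to 49829507), the neuropeptide Y precursor, was at 11122, 13294, 15448, 15553, 13937 and 12478 CPM in the Lamp5 pools. Sst cells also held it, at a median of 10232 and up to 11295, which is above the lowest Lamp5 pool, while Vip cells had a median of 1329 and Pvalb cells 451. Slc32a1, the vesicular GABA transporter of all GABAergic neurons, ran from 381 to 793 in Lamp5 pools and had medians of 712, 589 and 508 in Pvalb, Sst and Vip cells.

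**Figure D1:**
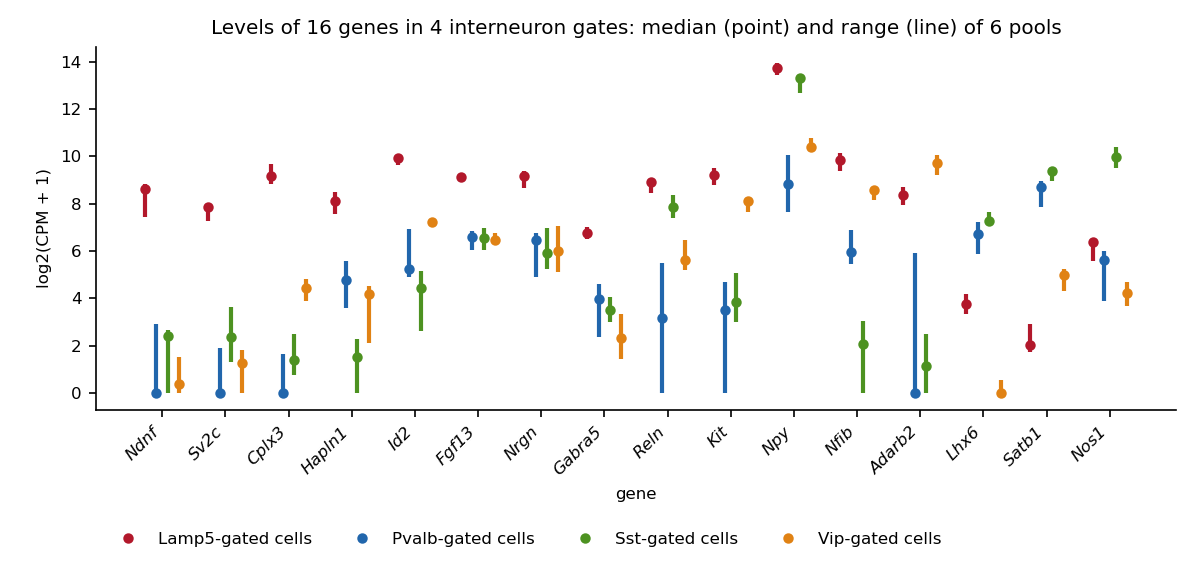
CPM, as log2(value + 1), of 16 genes in 4 interneuron gates; points are the median and lines the range of 6 pools. Ndnf, Cplx3, Sv2c and Hapln1 stand apart in Lamp5 cells in every pool, while Npy in Sst cells reaches the Lamp5 range.

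The genes with the largest ratio of Lamp5 level to the highest of the 3 other gates were ranked among genes at 50 CPM or more in every Lamp5 pool. Ndnf and Sv2c, a synaptic vesicle glycoprotein at a median of 232 against at most 4.13 elsewhere, led the list, and no ratio is given since the other gates were near 0. Cplx3, a complexin that acts in vesicle fusion, followed at 28.5 times the highest other median and had a UMI in 91.9% of members. Cd34, a sialomucin of progenitor and endothelial cells, was 14.6 times higher (median 78.3 CPM), and Tnnt1, a troponin of slow skeletal muscle, 11.6 times higher (240 CPM). Hapln1, a link protein of perineuronal matrix, stood at 10.4 times, Thrsp, a lipogenic factor, at 8.53 times, and Pde11a, a cyclic nucleotide phosphodiesterase, at 7.72 times. Gabra5 stood at 7.26 times, Nrgn at 6.54, Nyap2 at 6.48, Id2 at 6.40, Fgf13 at 5.99, Mmp17 at 5.92 and Kctd6 at 5.18 times. All 15 genes lay above every pool of the other gates, which their choice by this same contrast favours, so nothing is read from it.

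Transcription factors were read by embryonic origin. Of 8 factors linked to the caudal ganglionic eminence, all were at 10 CPM or more in every Lamp5 pool, a level that 7972 genes reached. Of these 8, 1 was higher than in every other gate: Nfib, at a median of 921, against 379 in Vip, 61.8 in Pvalb and 3.25 in Sst cells. Adarb2 (median 328), Prox1 (138) and Nr2f2 (224) had medians above those of Pvalb and Sst cells and below those of Vip cells, which were 844, 299 and 345. Npas1 was at a median of 17.8 in Lamp5 cells, against 273 in Vip cells. Of 7 factors linked to the medial ganglionic eminence, only Satb1, a chromatin organiser, was lower by the rule, at 2.29 to 6.56 in the Lamp5 pools against medians of 415, 664 and 30.5. Lhx6 was at 12.4 (105 in Pvalb and 152 in Sst cells), Sox6 at 3.32 (101 and 141), and Nkx2-1 had 21 UMIs in all. Maf, which is also a medial factor, was not absent: it had a median of 295 in Lamp5, 163 in Pvalb and 136 in Sst cells.

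Of 15 GABA receptor subunits, 3 were higher and 1 lower. Gabra5, a subunit of extrasynaptic GABA-A receptors, had a median of 107, against 14.7, 10.4 and 4.00 in Pvalb, Sst and Vip cells. Gabra4 stood at 185 (108, 58.6 and 64.8) and Gabbr2, an obligate subunit of the GABA-B receptor, at 601 (355, 191 and 183). Gabra3 was lower, at 18.0, where the other medians ran from 32.9 to 74.2. Gabrd, the delta subunit that gives GABA-A receptors a high affinity for ambient GABA, was at 56.1, 119, 157, 179, 81.2 and 144 in Lamp5 pools. It exceeded its medians of 19.1 and 10.0 in Sst and Vip cells but overlapped the Pvalb pools, which ran from 122 to 344.

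None of 15 neuropeptide genes outside the gate, Npy included, was higher or lower in every pool. Cck, cholecystokinin, had a median of 658 in Lamp5 cells, 587 in Pvalb, 21.2 in Sst and 2500 in Vip cells. Pnoc, the nociceptin precursor, had 382 in Lamp5 and 329 in Vip cells, and Nxph1, a ligand of neurexins, 460 against 391 in Sst and 5.77 in Vip cells. Cort stood at 69.6 in Lamp5 and 755 in Sst cells, and Tac2 at 56.4 against 1967 in Vip cells. Tac1 had 115 UMIs in all Lamp5 cells, of which 104 lay in 1 cell of the early 1 ipsilateral library.

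Of 8 genes of nitric oxide signalling, none was higher and Gucy1a1, a subunit of the nitric oxide receptor guanylyl cyclase, was lower (10.7, against 44.4 to 94.1). Nos1 (ENSMUSG00000029361, chromosome 5, 117781032 to 117958840), neuronal nitric oxide synthase, was at 93.4, 90.9, 53.7, 46.8, 78.8 and 87.4 CPM in Lamp5 pools. Sst cells, with a median of 988, held far more, and Pvalb (48.2) and Vip cells (17.6) less.

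None of 28 neuromodulator receptors was higher or lower in every pool. Adra1a, an alpha-1 adrenergic receptor, had a median of 140 in Lamp5 cells against 35.9 to 54.3 elsewhere. Cnr1, the cannabinoid receptor CB1, stood at 562, between 179 and 196 in Pvalb and Sst and 1862 in Vip cells. Htr3a, the ionotropic serotonin receptor that marks interneurons of caudal origin, had 13.2 in Lamp5 and 250 in Vip cells. The muscarinic receptor Chrm2 and the opioid receptor Oprd1 had 0 UMIs in all 1088 members, while Chrm2 had a median of 85.6 in Sst cells and Oprd1 medians of 10.3 in Pvalb and 2.88 in Sst cells. A count of 0 limits the members with a UMI, not the members expressing the gene.

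Among 17 glutamate receptor genes, the NMDA receptor subunit Grin2d was higher (66.5, against 35.9 to 41.0), and the kainate receptor Grik3 was lower, with 8 UMIs in all members and medians of 11.6, 85.4 and 5.49 in Pvalb, Sst and Vip cells. Grm5, a metabotropic receptor, had medians of 482 in Lamp5 cells and of 314, 176 and 175 in those gates. Of 24 channel and gap junction genes, Cacna2d1, an auxiliary calcium channel subunit, was higher (304, against at most 76.2 in Vip cells), and Kcnc2, the Kv3.2 potassium channel of fast-spiking cells, was lower (34.2, against 572 in Pvalb cells).

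Of 21 adhesion and growth factor genes, Fgf13 (563, against 87.2 to 94.0) and the netrin receptor Unc5c (163, against 28.8 to 46.7) were higher, and Fgf12 (80.4, against 232 to 391) and Cntnap5a (7.87, against 59.9 to 114) were lower. Fgf12 and Fgf13 code for related intracellular proteins that bind sodium channels. Of 20 genes of synaptic release, Cplx3 and Sv2c were higher. Syt2 and Vamp1, which serve fast release in Pvalb cells, were at medians of 1.87 and 23.6 in Lamp5 cells and 192 and 184 in Pvalb cells.

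Markers of other cell types were present at low levels. Summed over each list, microglia markers ran from 19.0 to 432 CPM in the Lamp5 pools, with late 1 (432) and control 1 (209) above the other 4. Oligodendrocyte lineage markers ran from 23.8 to 146 with late 1 again highest, astrocyte markers from 184 to 256, vascular markers from 14.9 to 44.1, and the 4 markers of other interneurons outside the gate from 1.64 to 37.0. The 7 glutamatergic markers outside the gate summed to 572 to 808, most of it Nrgn. Pvalb, Sst, Vip and Slc17a7, which the gate limits, are left out of these sums. Of the members, 55 held 5 or more UMIs of the glial and vascular lists, and 25 of these were in late 1. All genes of these lists had at least 1 UMI among the members. Results are given with those 55 cells left out where that ended a call.

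The members were then divided by clustering (1500 variable genes, each centred within its pool, 20 principal components, Leiden resolution 0.8), which gave 10 clusters. Because the clusters were made from these genes, their differences are descriptions, and no cluster was given a cell type name. Cluster 1 (149 cells) was led by Ramp3, Ndnf and Sema3e and held 931 CPM of Ndnf and 957 of Reln. Cluster 2 (130 cells), led by Rxfp1, Synpr and Qrfpr, held 657 of Ndnf, 761 of Reln and 2979 of Cxcl14, a chemokine. Cluster 3 (212 cells), led by Lsp1 and Npy, held 27721 of Npy with 32.8 of Ndnf and 78.0 of Reln. 

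Cluster 4 (191 cells) was led by haemoglobin genes, which were carried by few cells, and then by Atp6ap1l, Cox6a2 and Alas2, with 888 CPM of Kit, 14523 of Npy and 564 of Ndnf. Cluster 5 (190 cells), led by Sln, Vwc2 and Akain1, held 18913 of Npy, 1475 of Cck and 102 of Sp8. Cluster 6 (90 cells) was led by Tac2, Npas1 and Egln3 and held 1218 of Npy, 5732 of Cxcl14, 677 of Tac2, 674 of Nr2f2 and 116 of Kit. Its Npy was the lowest of the 10 clusters and its Cxcl14 the highest.

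Cluster 10 (52 cells) was led by Lhx6, Alcam and Nos1, and was the cluster without Ndnf UMIs. It held 241 CPM of Lhx6, 41.9 of Nkx2-1, 401 of Nos1, 915 of Hapln1, 1771 of Id2 and 574 of Gria1. Among the other 9 clusters Lhx6 reached at most 1.29. Cluster 7 (44 cells) was led by Spp1, Apod and Dcn, held 3650 of Cxcl14 and included 10 of the cells with other-type UMIs. Clusters 8 (10 cells, led by Olig1) and 9 (20 cells, led by Ccl4 and C1qa) were led by genes of the oligodendrocyte lineage and of microglia, and 6 and 14 of their cells were scored as doublets. Cluster 9 made up 5.71% of control 1 and 5.88% of late 1, and at most 1.04% of the other pools.

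Each cluster from 1 to 7 and cluster 10 had cells of every pool. Centring each gene within its pool favours clusters that mix pools, so this spread is not read as a result. As a share of a pool's Lamp5 cells, cluster 1 ran from 9.69% to 16.2%, cluster 3 from 14.3% to 22.4%, cluster 4 from 11.4% to 24.5%, cluster 5 from 16.1% to 20.0%, cluster 6 from 5.71% to 9.57% and cluster 10 from 3.06% to 8.57%. These shares were not tested between stages, since the genes that define the clusters may themselves differ between pools.

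**Figure D2:**
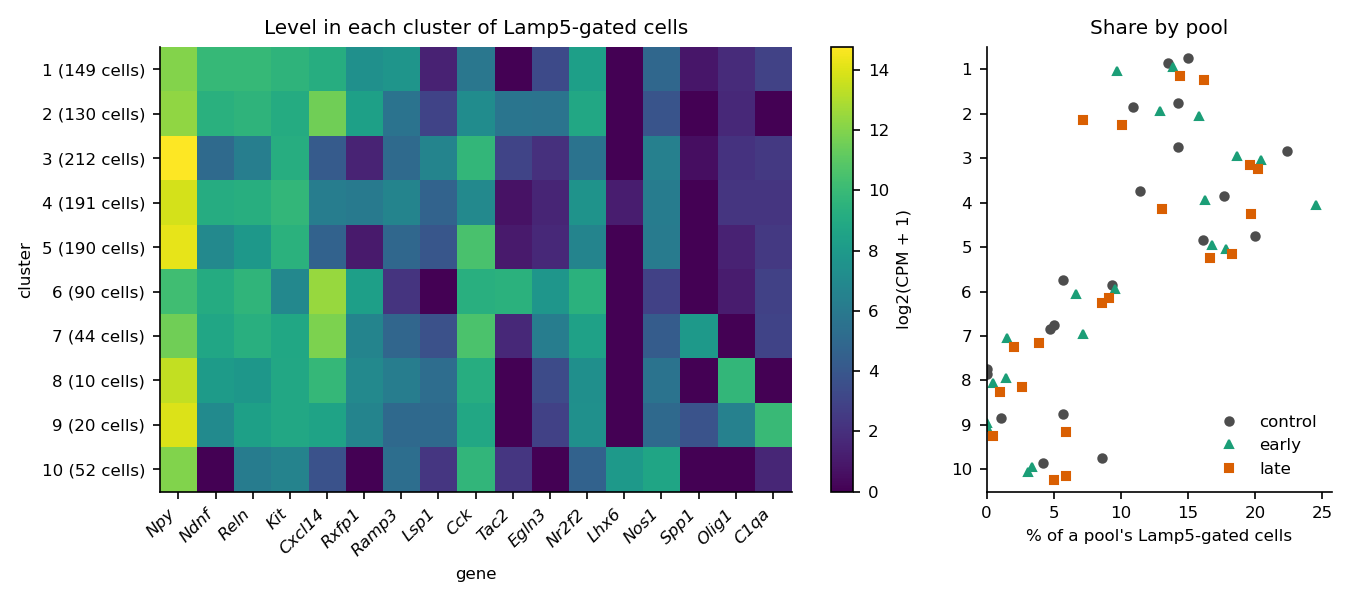
Left, levels of 17 genes in the 10 clusters of Lamp5 cells; right, each cluster as a percent of the Lamp5 cells of each pool (circles control, triangles early, squares late). Lhx6 is highest in cluster 10, Tac2 in cluster 6 and Npy in clusters 3 and 5, and clusters 8 and 9 are the clusters that some pools lack.

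To compare detection at a fixed depth, each member was thinned to 3000 UMIs, which left out 33 shallower cells and kept 1055. At this depth Npy had a UMI in 94.4% of members, with a median of 24 UMIs and a range over pools of 91.3% to 96.9%. Without thinning it had a UMI in 95.6%. Ndnf had a UMI in 46.9% after thinning (33.8% to 54.7% over pools) and 57.5% before it. Reln was at 53.9% (48.9% to 61.5%), Kit at 77.2%, Cplx3 at 76.8%, Cck at 48.7%, Nr2f2 at 42.7%, Nos1 at 17.0% and Lhx6 at 2.09%.

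Reln and Ndnf tended to be found in the same cells. Of 495 thinned cells with a Ndnf UMI, 80.2% had one of Reln, against 30.7% of the 560 cells without Ndnf. Npy was found in 93.3% of the first and 95.4% of the second, but its median was 14 UMIs with Ndnf and 53 UMIs without. Of the 22 cells with an Lhx6 UMI, none had Ndnf and 72.7% had Nos1, against 15.8% of the rest. Of the 49 cells with Tac2, 89.8% had Nr2f2, against 40.4% of the rest, and 42.9% had Egln3, against 4.47%. Cells of 1 pool share their library, so these are descriptions without a test.

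The question of how many cells of the cortex are of this class at each stage was put as their share of GABAergic-gated cells. The share was 24.6% in control 1 (95% Wilson interval 21.2 to 28.3), 23.0% in control 2 (20.3 to 26.0), 26.2% in early 1 (23.3 to 29.3), 21.1% in early 2 (18.6 to 23.8), 19.2% in late 1 (16.6 to 22.1) and 24.4% in late 2 (21.5 to 27.4). The mean was 23.1% ± 2.54 (SD, n = 6 pools). The stages overlapped. Early minus control was -0.133 percentage points (exact permutation p = 1), late minus control -1.99 and late minus early -1.86 (exact p = 0.667 each), and trained minus control -1.06 (exact p = 0.667). With 2 pools against 2 the smallest possible p is 0.3333, and with 4 against 2 it is 0.133, so no difference could have passed. The left library of control 1 (11 of 26 cells, 42.3%) stood apart from the other control libraries (22.7% to 23.7%). Without it control 1 was at 23.7%, and early minus control was 0.291, late minus control -1.57 and trained minus control -0.638.

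Within the batch codes that hold 2 stages, early 1 (26.2%) lay above control 2 (23.0%) and late 1 (19.2%) below control 1 (24.6%). Since the gate needs 2 Lamp5 UMIs, the share depends on depth. Thinned to 3000 UMIs, the pools were at 22.4%, 16.6%, 21.4%, 18.2%, 14.2% and 18.4%, with a mean of 18.5% ± 3.01 (SD, n = 6). Among the 4 trained pools, the share averaged 21.5% ± 1.75 in contralateral and 23.6% ± 4.41 in ipsilateral libraries (SD, n = 4), lower in contralateral in 3 of 4 (exact sign-flip permutation p = 0.25, smallest possible 0.125).

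**Figure D3:**
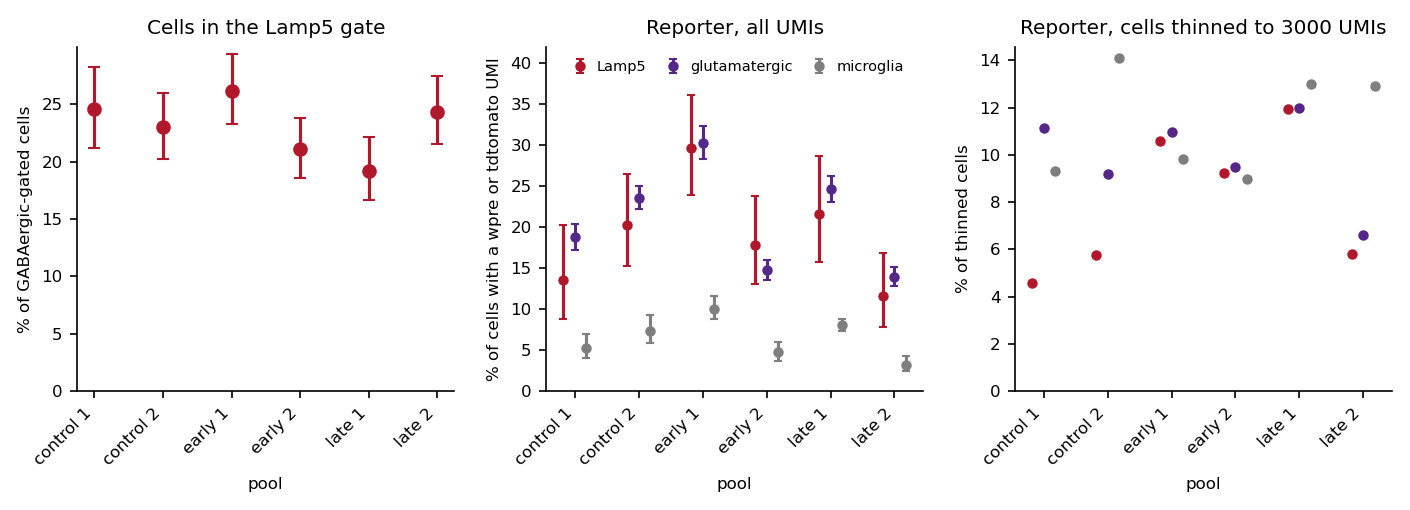
Left, Lamp5 cells as a percent of GABAergic-gated cells in each pool with 95% Wilson intervals; middle, percent of Lamp5, glutamatergic and microglia-gated cells with a reporter UMI, with the same intervals; right, the same after thinning to 3000 UMIs. The Lamp5 share lies between 19.2% and 26.2%, and after thinning the reporter shares of Lamp5 and microglia-gated cells overlap.

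The reporter was read from its added features, wpre (a regulatory element of the reporter transcript) and tdtomato. A reporter UMI was found in 13.6%, 20.3%, 29.7%, 17.9%, 21.6% and 11.6% of Lamp5 cells in the order of pools, a mean of 19.1% ± 6.44 (SD, n = 6), with wpre in 209 members and tdtomato in 2. Microglia-gated cells served as the comparison for free RNA, although whether they carry the label was not tested. They had a UMI in 5.33%, 7.40%, 10.1%, 4.73%, 8.06% and 3.26% of cells at a median depth of 1888 UMIs, against 7800 in Lamp5 cells. After thinning to 3000 UMIs, Lamp5 cells were at 4.58%, 5.76%, 10.6%, 9.24%, 11.9% and 5.79%, and microglia at 9.30%, 14.1%, 9.84%, 8.99%, 13.0% and 12.9%, with 9327 of 11006 microglia too shallow to be kept. The unthinned Lamp5 share lay above the microglia share in every pool, in deeper cells. After thinning it lay below the microglia share in 4 of 6 pools and within 1 point above it in early 1 and early 2. The microglia kept were the deepest of their gate, with 86 cells in control 1 and 31 in late 2. Thinning also removes a cell's own reporter UMIs, so neither comparison can separate label from free RNA. The part of free RNA in these shares was not tested.

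With that limit, the unthinned shares by stage were compared. Early minus control was 6.82 points (exact permutation p = 0.667), late minus control -0.350 (exact p = 1), late minus early -7.17 (exact p = 0.667) and trained minus control 3.23 (exact p = 0.8). After thinning to 3000 UMIs, early minus control was 4.74 and late minus control 3.69 (exact p = 0.3333 each), and trained minus control was 4.21 (exact permutation p = 0.133), each the smallest p possible. All 4 thinned trained pools lay above both controls, with late 2 (11 of 190 cells, 5.79%) and control 2 (11 of 191 cells, 5.76%) nearly equal. Thinning was 1 random draw, and another draw could change the order of these 2 pools. Without the left library of control 1, the unthinned differences were 8.18 for early, 1.01 for late and 4.59 for trained pools. Within batch and without thinning, early 1 lay 9.35 points above control 2 and late 1 lay 8.00 points above control 1. The trained pool was the deeper in both pairs. After thinning, early 1 and control 2 were at 10.6% and 5.76%, and late 1 and control 1 at 11.9% and 4.58%. The contralateral library had the higher unthinned share in 4 of 4 trained pools, at means of 24.5% and 16.8% (difference 7.72, exact permutation p = 0.125, the smallest possible). By median UMIs the contralateral Lamp5 cells were deeper in early 2 and late 2 and shallower in early 1 and late 1.

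Against other cells of the same pools, the Lamp5 share was 3.56 points above that of Vip cells, higher in 6 of 6 pools (exact sign-flip permutation p = 0.03125, adjusted over 4 comparisons 0.125). It was 5.12 points above Pvalb cells in 5 of 6 pools, 3.26 points below Sst cells in 4 of 6 and 1.92 points below glutamatergic cells in 5 of 6 (exact adjusted p = 0.156 each). After thinning the difference from Vip cells was -1.15 points, higher in 2 of 6 pools (exact p = 0.25, adjusted 0.3333), and that from glutamatergic cells -1.91 points, lower in 6 of 6 pools (exact p = 0.03125, adjusted 0.125).

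To ask which genes changed with training in these cells, UMIs were summed per pool and tested with edgeR's quasi-likelihood test with stage and kit class, over 10591 genes. At an adjusted p under 0.05, edgeR called 0 genes between early and control, 0 between late and control and 0 between late and early (0% called in each). Genes with an unadjusted p under 0.05 numbered 619, 554 and 282, and DESeq2 called 0 in each comparison, with 141, 123 and 29 at an unadjusted p under 0.05. The 3 comparisons share pools, and the fit had 2 residual degrees of freedom. The zeros depended on the setting. In the same order, edgeR called 21, 31 and 24 genes without a filter on low counts, and 9, 4 and 4 with the replicate number in place of kit class.

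The immediate early genes, transcribed within minutes of neuronal activity, were named whatever their values. Fos was at 305, 517, 531, 490, 365 and 583 CPM in Lamp5 pools, with both class A pools lowest. Its log2 difference from control was 0.07 ± 0.17 (SE) in early pools and 0.28 ± 0.16 in late pools (adjusted p = 0.95 and 0.94, edgeR). Egr1, a zinc-finger factor, was at 306, 571, 395, 408, 363 and 566, and Arc, a synaptic plasticity protein, at 16.2, 20.9, 16.04, 12.3, 21.3 and 21.3. For Arc the 2 early pools thus lay below and the 2 late pools above the controls, in part by under 1 CPM, and the log2 differences from control were -0.37 in early and 0.24 in late pools, neither of them called by edgeR. Npas4, which responds to calcium influx, was at 66.0, 107, 64.8, 86.1, 50.4 and 99.6, and Fosb at 116, 175, 132, 190, 90.6 and 243. Nr4a1 was at 187, 147, 98.2, 96.8, 194 and 118, and Homer1 at 81.0, 87.0, 72.7, 99.3, 77.2 and 109.5. Junb, a partner of Fos, was at 189, 268, 308, 314, 296 and 332, so that all 4 trained pools lay above both controls. None of the other genes named here did so. The share of all genes with this order was not counted, so nothing is read from it. The log2 difference of Junb from control was 0.36 ± 0.18 in early and 0.53 ± 0.17 in late pools, with adjusted p = 0.82 and 0.94 (edgeR).

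Of the 21 immediate early genes tested, none was called. Between early and control 7 had a difference above 0 (median -0.11, all genes 50.3% above 0), between late and control 17 (median 0.29, all genes 52.5%), and between late and early 20 (median 0.37, all genes 50.03%). Of them, 3, 8 and 5 had an unadjusted p under 0.05. Both early pools are of kit class B, so the kit term in comparisons with early was set by the control and late pools. The counts against early rest on that adjustment. In CPM, late 1 lay below both early pools for Fos, Fosb, Junb, Egr1 and Npas4. It lay above both for Arc and Nr4a1, and between them for Homer1. Within batch, 16 of 21 were higher in late 1 than in control 1 (median log2 ratio of CPM 0.30), where 45.8% of all genes tested were (median -0.05). In early 1, 5 of 21 were higher than in control 2 (median -0.33), where 41.6% of all genes were (median -0.07). Each of these sets 1 pool beside 1 pool, with no test. Of 12 heat shock and dissociation genes tested, which respond to handling of the tissue, 9 were above 0 between early and control (median 0.22) and 12 between late and control (median 0.26), 0 of them called. Of 8 microglia markers tested, 6 were above 0 between late and control (median 0.23) and 7 between late and early (median 0.91), as were 3 of 3 astrocyte markers in both, and 3 and 2 of 3 oligodendrocyte lineage markers, 0 of them called. The part of handling and of RNA from glia in the values of the immediate early genes was not tested.

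Other lists also had 0 calls. Of 24 channel and gap junction genes, 2 were above 0 between early and control (median -0.14) and 7 between late and control (median -0.07). Of 18 genes of synaptic release tested, 5 and 3 were above 0 (medians -0.21 and -0.17), with Sv2b at -0.90 and -0.91. Of the 9 Lamp5 markers, 7 were above 0 in each (medians 0.09 and 0.08), with Npy at 0.39 ± 0.13 and Sv2c at -0.41 for early against control (adjusted p = 0.82 for Npy, edgeR). The reporter feature wpre differed by 0.67 ± 0.28 in early and 0.02 ± 0.28 in late pools (adjusted p = 0.82 and 1.00, edgeR), which the shares in microglia limit. Of 13 GABA receptor subunits tested, 6 were above 0 in each, with Gabrd at 0.61 and 0.44.

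The uncalled genes with the smallest p are given as values. Between early and control they were Hba-a2 (7.61), Hbb-bt (10.39) and Hba-a1 (7.12) on the higher side, which are haemoglobin genes carried by few cells, described below. On the lower side they were Wipf3, an actin regulator (-1.36 ± 0.34), Nos1 (-0.81 ± 0.21) and the G protein subunit Gng4 (-0.97 ± 0.28). Both early pools lay below the 4 other pools for Nos1 (53.7 and 46.8, against 78.8 to 93.4 CPM), for Wipf3 (14.7 and 8.20, against 22.0 to 36.5) and for Gng4 (20.3 and 14.8, against 26.6 to 47.3). Choosing genes by p in this comparison favours such a separation, so nothing is read from it. In Pvalb, Sst and Vip cells together, both early pools were also lowest for Nos1 (238 and 281, against 305 to 504). The same held there for Wipf3 (12.2 in both, against 14.4 to 26.2), but not for Gng4 (79.3 and 84.6, against 79.4 to 98.5). Without control 2 the Wipf3 difference was -0.73. The adjusted p of Nos1 was 0.82 (edgeR), and cluster 10, in which Nos1 was at 401, made up 3.35% and 3.06% of the early pools and 4.17% to 8.57% of the others. Its part in the Nos1 difference was not tested.

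Between late and control the higher genes were Lars2 (1.87), the nuclear non-coding RNA Neat1 (2.32 ± 0.49) and AC149090.1 (0.88), and the lower genes the pannexin Panx2 (-1.25 ± 0.31), Kcmf1 (-0.73) and Prune2 (-0.81). The Lars2 difference was 0.03 without control 2 and also without late 2. In the order of pools Lars2 was at 11.2, 28.2, 49.4, 69.7, 11.0 and 130 CPM, so late 1 was no higher than control 1. Pvalb, Sst and Vip cells together held 10.8, 30.8, 54.5, 74.7, 6.08 and 137. AC149090.1 was likewise highest in late 2 in both. Neat1 was at 4.98, 4.38, 2.62, 6.56, 21.3 and 22.8 CPM, with 86 UMIs in 39 cells, of which 44.2% were in 3 cells. Between late and early, the higher genes were Neat1 (2.48), Jun (0.73 ± 0.19) and the pseudogene Gm12346 (1.66), and the lower genes were the ribosomal protein genes Rpl38 (-0.76) and Rps28 (-0.71) and AC121965.1 (-0.81). Without kit class in the fit, Rpl38 and Rps28 were at 0.43 and 0.60. Without late 2, Jun was at 0.45, Rpl38 at -0.28, AC121965.1 at -0.22 and Gm12346 at -1.07. Reads of Gm12346 may come from a near-identical gene. In Lamp5 cells and in the other interneurons alike, Gm12346 was highest in late 2. Rpl38, Rps28 and AC121965.1 were in both highest in the class A pools and lowest in late 2.

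**Figure D4:**
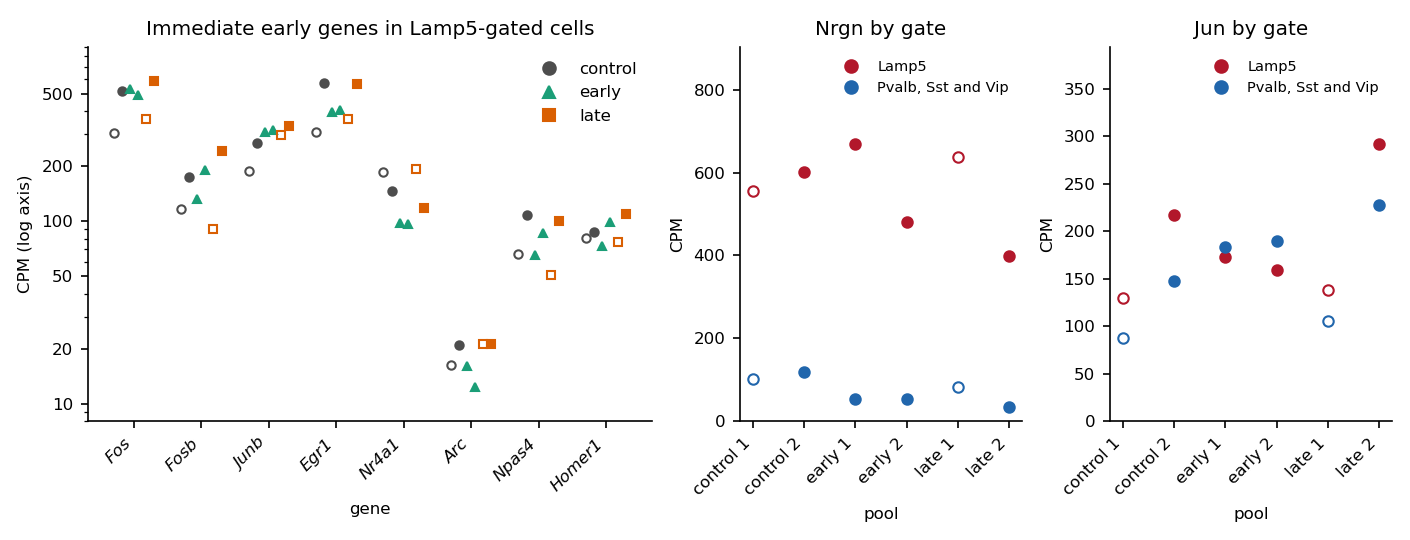
Left, CPM of 8 immediate early genes in the Lamp5 cells of each pool (log axis; open symbols are the kit class A pools, control 1 and late 1); right, Nrgn and Jun in Lamp5 cells (red) and in Pvalb, Sst and Vip cells together (blue). The stages overlap for Fos and Egr1, and Nrgn is above 399 in every Lamp5 pool and below 119 in the other interneurons.

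The hemispheres were compared within the 4 trained pools, where edgeR with pool as a block (3 residual degrees of freedom) called 2 of 8235 genes (0.0243%), both lower in contralateral libraries, and 338 had an unadjusted p under 0.05. Hbb-bs (ENSMUSG00000052305, chromosome 7, 103826534 to 103828096), a beta globin, had contralateral and ipsilateral levels of 26.5 and 1768 CPM in early 1, 9.24 and 44.2 in early 2, 82.3 and 1779 in late 1, and 14.1 and 10.7 in late 2. Its log2 difference was -5.01 ± 0.18 (SE, adjusted p = 1.19e-28, edgeR). Neither this SE nor this p measures agreement between the 4 pools, since late 2 had the other direction and early 2 a smaller difference. Pcp4 (ENSMUSG00000090223, chromosome 16, 96467606 to 96525793), a calmodulin-binding peptide, was at 19.8 and 87.8, 14.8 and 45.7, 60.1 and 55.0, and 24.7 and 30.7 in the same order, with a difference of -1.13 ± 0.22 (adjusted p = 0.0137, edgeR).

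Both calls rested on 3 cells. Of 4601 Hbb-bs UMIs in the 1088 members, 3225 lay in 1 ipsilateral cell of early 1 and 1109 in 1 ipsilateral cell of late 1, and 112 of 484 Pcp4 UMIs lay in another ipsilateral cell of early 1. Without these 3 cells, 0 genes were called, and the differences were 0.25 for Hbb-bs and -0.42 for Pcp4. Haemoglobin RNA is that of red blood cells, and the alpha (Hba-a1, Hba-a2) and beta (Hbb-bs, Hbb-bt) copies are near identical, so reads may be split between them. With doublets removed, Hbb-bs alone was called (-3.50), and without early 1 Pcp4 stood at -0.39 and was not called. DESeq2 called 0 genes.

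**Figure D5:**
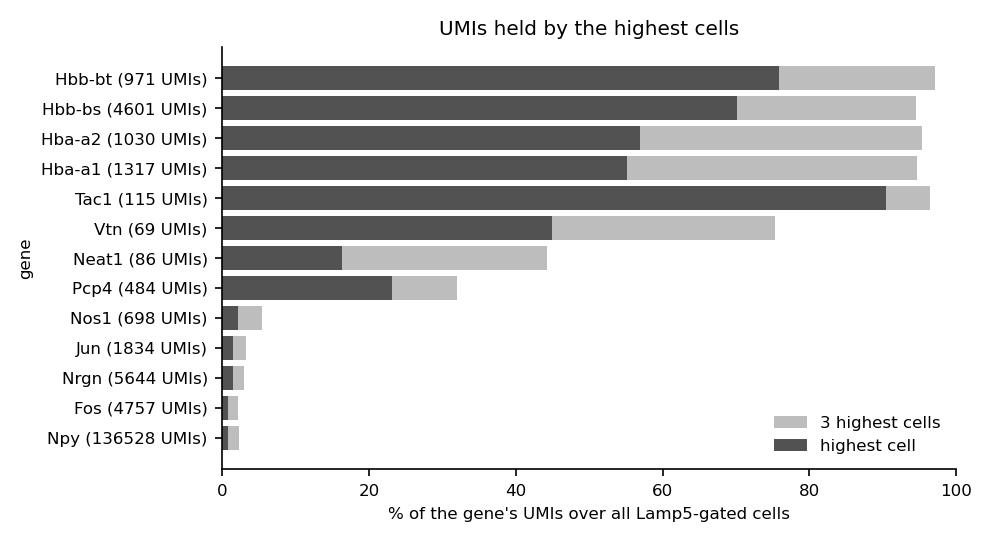
Percent of a gene's UMIs among all 1088 Lamp5 cells found in the cell with most (dark) and in the 3 cells with most (light), for 13 genes. The 4 haemoglobin genes and Tac1 have over 50% in 1 cell, Vtn 44.9%, Pcp4 23.1%, and Npy, Nrgn, Jun and Fos under 2%.

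Cxcl14 (ENSMUSG00000021508, chromosome 13, 56288643 to 56296551), the chemokine that was highest in clusters 6, 7 and 2, had the smallest p among uncalled genes on the contralateral side. It was at 1328 and 1109 CPM in contralateral and ipsilateral cells of early 1, 893 and 588 in early 2, 1361 and 1270 in late 1, and 622 and 546 in late 2. It was thus higher on the contralateral side in 4 of 4 pools, by 0.28 ± 0.06 on the log2 scale (adjusted p = 0.16, edgeR), and no single cell held over 1.52% of its UMIs. Ppid (0.40) and Fam168b (0.42) followed, and AC160336.1 (-0.54), Marcks (-0.69) and the processed pseudogene Gm13268 (-0.80) on the other side. Ppid, Fam168b and Gm13268 had the same direction in every pool. Their choice by p in this comparison, and that of Cxcl14, favours a shared direction, so nothing is read from it. Marcks was higher in contralateral cells in early 2 (42.5 and 28.0 CPM), and AC160336.1 in late 1 (20.6 and 17.3). With 1 pool left out the Marcks difference ran from -0.95 to -0.43. Npy differed by 0.16 ± 0.05 (adjusted p = 1, edgeR).

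Whether a stage difference was other in Lamp5 cells than in Pvalb, Sst and Vip cells summed together was tested with edgeR over 13026 genes. The pool was a block, which left 3 residual degrees of freedom. For the early difference 6 genes were called (0.0461%, with 578 at an unadjusted p under 0.05) and for the late difference 5 (0.0384%, 515), while DESeq2 called 0 in both. The haemoglobin genes made up 4 and 2 of these calls, and their early differences fell to 2.501 to 4.13 without control 2 and 2.17 to 3.63 without early 1. Without the 3 Lamp5 cells above and with every other interneuron kept, 2 genes were called for early (Jun and Nrgn) and 2 for late (Nrgn and Vtn).

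Nrgn (ENSMUSG00000053310, chromosome 9, 37544492 to 37552904) codes for neurogranin, a calmodulin-binding protein of dendrites best known from glutamatergic neurons. It was at 556, 600, 669, 481, 637 and 399 CPM in Lamp5 cells and at 101, 119, 54.5, 54.1, 81.6 and 33.7 in the other interneurons. In Lamp5 cells the trained pools overlapped the controls, and in the other interneurons summed together all 4 trained pools lay below both controls. By gate this held in Vip cells, while late 1 lay above control 1 in Pvalb cells (104.9 and 98.4) and in Sst cells (83.3 and 62.1). The early difference was 1.06 ± 0.14 (log2 ± SE) above that of the other interneurons (adjusted p = 1.12e-05, edgeR) and the late difference 0.75 ± 0.15 above it (adjusted p = 0.0287, edgeR). Within batch, the log2 ratio of Lamp5 cells to other interneurons was 1.28 higher in early 1 than in control 2 and 0.51 higher in late 1 than in control 1. The early call was lost without early 1 (0.76, adjusted p = 0.47, edgeR) and under DESeq2 (1.02, adjusted p = 0.72), and its adjusted p ran from 1.34e-12 to 0.72 over all alternatives. The late call was lost without control 1 (adjusted p = 0.11), without control 2 (0.55), without late 2 (0.56 on the log2 scale, adjusted p = 0.22) and under DESeq2, and the difference was 1.17 without late 1, with adjusted p from 2.27e-05 to 1.00 over all alternatives and edgeR in all but the last.

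Nrgn levels also differed between pools in cells that are not interneurons. Microglia-gated cells held 227, 161, 79.3, 131, 109 and 85.7 CPM of Nrgn, again highest in the controls, and glutamatergic cells 6399, 6307, 5294, 4333, 5298 and 4128. The sum of the 5 other glutamatergic markers besides Camk2a that the gate did not use was 13.7, 9.24, 3.93, 5.74, 9.46 and 1.52 in Lamp5 cells and 4.15, 8.84, 3.32, 8.76, 6.95 and 7.40 in the other interneurons. The part of RNA from other cells in the Nrgn difference was not tested. Vip cells made up 63.8%, 69.0%, 71.4%, 69.3%, 63.2% and 70.8% of the other interneurons.

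Jun (ENSMUSG00000052684, chromosome 4, 95049034 to 95052222), a subunit of the AP-1 factor, was at 130, 217, 173, 159, 139 and 292 CPM in Lamp5 cells and 87.2, 148, 184, 189, 106 and 228 in the other interneurons. Early pools lay between the controls in Lamp5 cells and above both in the other interneurons, and the early difference was -0.72 ± 0.13 against that of the others (adjusted p = 0.00321, edgeR). Microglia-gated cells held 425 to 2290 CPM of Jun, and their part in this difference was not tested. Within batch, the log2 ratio of Lamp5 cells to the others differed by -0.64 between early 1 and control 2 and by -0.18 between late 1 and control 1. The Jun call was lost with doublets removed (-0.55, adjusted p = 0.73), without the 55 Lamp5 cells with other-type UMIs (-0.62, adjusted p = 0.057), without control 2 (-0.67, adjusted p = 0.59) and without early 2 (-0.66, adjusted p = 0.15), all by edgeR. With such cells also left out of the other interneurons (2277 of 2418 kept) it stood at -0.45 (adjusted p = 0.83, edgeR). Its adjusted p ran from 1.41e-04 to 1.00 over all alternatives, the highest under DESeq2.

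The other late calls were Neat1 (2.47 ± 0.51, adjusted p = 0.0494, edgeR) and Vtn, vitronectin of vascular mural cells (-3.94 ± 0.77, adjusted p = 0.0287, edgeR). Of 69 Vtn UMIs in the members, 31 lay in 1 cell of control 2, and without control 2 the Vtn difference turned to 2.34. Without the 55 Lamp5 cells with other-type UMIs it turned to 2.69 and was not called, and with such cells also left out of the other interneurons Vtn did not pass the filter on low counts. The Vtn call was also lost with doublets removed (-3.76) and without late 2 (-2.92). The Neat1 difference was 0.94 without the 55 Lamp5 cells and 0.87 with such cells left out of both classes, and it was called in neither. Without the 3 cells above it was 2.47 (adjusted p = 0.064, edgeR). It was not called either with doublets removed (2.60) or without control 1 (2.69), control 2 (1.82) or late 1 (2.16). Neat1 was at 192 to 1123 CPM in microglia-gated cells of the same pools, and their part in it was not tested.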

How the data were processed

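Single-cell 3' RNA libraries of motor cortex were analysed as deposited. Each deposited matrix holds unnormalised UMI counts for every gene in every barcode, and per the file headers the software that wrote it was version 3.0.2. The submitters' processing notes name Cell Ranger 3.1.0, GRCm38 and mm10, and how cells were called is not given in the sources used here. Of 54235 features, 54079 matched GENCODE M21 by gene ID. Depth ranged from 802818 to 3055432 UMIs per pool of Lamp5 cells, and Wilson 95% intervals cover counting error only. The labels do not say whether the pools of a stage were trained or dissected apart, so p-values reach no further than these pools. The edgeR fits moderate the spread of each gene with that of all genes, so their p-values rest on more than the residual degrees of freedom. The SE given with an edgeR difference is that difference divided by the square root of its F statistic. It does not measure the spread of the pools' own differences.

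UMIs were summed per pool (hemispheres together) and tested by the quasi-likelihood method of edgeR 4.0.16 in R 4.3.3, after filterByExpr and TMM scaling, with stage and kit class, adjusted by the Benjamini-Hochberg method and called at 0.05. Kit class was taken from barcodes shared between libraries. Stage and batch code together leave 0 residual degrees of freedom, so no fit with batch as a term was made, and values within the 2 codes that hold 2 stages are given instead. Hemispheres, and Lamp5 cells against other interneurons, were compared with the pool as a block. Shares were compared by exact two-sided permutation of pools. Replicate numbers did not pair the pools across all stages. Doublets were scored with Scrublet (scanpy 1.11.5) at 0.8% per 1000 barcodes and kept, with their removal as an alternative. Clusters used scikit-learn 1.9.0 and igraph 0.11.9. The fits were tested on simulated data.

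The members and gene lists were chosen with earlier results of these data known. Named were all Lamp5 markers, the reporter, 8 immediate early genes, at most 5 called genes per direction with the smallest adjusted p whose groups did not overlap, the 3 uncalled genes per direction with the smallest p where fewer than 5 were called, the 15 genes with the largest ratio to other gates, and 2 to 4 examples per list. Called genes whose pools overlapped were named after their values were seen. Alternatives were DESeq2 1.42.0, RLE scaling, all genes with a UMI kept, the replicate number as a block, no kit class, a stricter cell filter (1000 genes, 2000 UMIs, 10% mitochondrial), doublets removed, other Lamp5, Sst and Vip limits, thinning, and each pool left out. Leaving out the 55 cells with other-type markers and the 3 cells with over 100 haemoglobin or Pcp4 UMIs (alone, or with such cells among the other interneurons), and leaving out the left library of control 1, were chosen after seeing the data. Some genes of these lists are not reported here.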

Additional observations from a re-analysis of the deposited data

Results flagged for a closer look

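In 11 cases the difference between trained and control pools was not the same in Lamp5 cells as in Pvalb, Sst and Vip cells together, by edgeR's test of the difference itself (adjusted p under 0.05). For early against control, the log2 difference in Lamp5 cells exceeded that in the other interneurons by 6.636 for Hbb-bs, 5.239 for Hba-a1, 5.394 for Hba-a2 and 6.863 for Hbb-bt, all haemoglobin genes, by 1.061 for Nrgn, and by -0.7227 (a lower value in Lamp5 cells) for Jun. For late against control it did so by 2.812 for Hba-a2, 2.48 for Hba-a1, 0.7547 for Nrgn and 2.469 for Neat1, and by -3.94 for Vtn. DESeq2 called none of them, and without the 3 Lamp5 cells that held over 100 haemoglobin or Pcp4 UMIs all 6 haemoglobin calls were lost, with Hba-a1 and Hba-a2 at -2.34 and -2.15 in the late difference. The early and late Nrgn calls, the Jun call and the Vtn call remained there, and the Neat1 call was lost. Without the 55 Lamp5 cells with other-type UMIs, Jun stood at -0.622 and Neat1 at 0.944, Vtn turned to 2.69, and none of these 3 was called.

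The share of Lamp5 cells among GABAergic-gated cells was 42.3% in the left library of control 1, which had 26 GABAergic-gated cells, and 22.7% to 23.7% in the other 3 control libraries. This was the 1 set of 4 values that met Dixon's criterion among 26 looked at, where chance alone would mark about 1 in 20.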

How the results depend on the processing

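Without a filter on low counts, 21, 31 and 24 genes were called between early and control, late and control, and late and early pools, 20 between hemispheres, and 12 and 8 in the comparison of early and late differences with those of other interneurons, against 0, 0, 0, 2, 6 and 5 with it. DESeq2 called 0 genes between hemispheres and 0 in both comparisons with other interneurons. With doublets removed there were 2 calls between late and control, 1 between hemispheres and 1 for the early difference. Without the 3 Lamp5 cells with over 100 haemoglobin or Pcp4 UMIs there were 0 between hemispheres, where Hbb-bs stood at 0.248, and 2 each for the early and late differences, with Hba-a1 at -2.34 and Hba-a2 at -2.15 in the late one. With such cells also left out of the other interneurons (2395 of 2418 kept) there were again 2 each, and Hbb-bt stood at -0.193 in the early difference. Without the 55 Lamp5 cells with other-type UMIs there were 5 early and 3 late calls, and Vtn turned to 2.69. The hemisphere fit with no replicate block called 0. With the replicate number as a replicate block in place of kit class, 9, 4 and 4 genes were called in the 3 stage comparisons. Deviations of same-numbered pools from their stage means correlated at -0.049, 0.481 and 0.193 (control with early, control with late, early with late). The numbers thus did not pair the pools across all stages. The highest value was for control with late, where control 1 and late 1 share a batch code and kit class A.

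Leaving out each pool in turn gave 7 to 64 calls (early against control), 22 to 89 (late against control) and 6 to 60 (late against early), on 1 residual degree of freedom and with a lone pool in a stage assumed to vary like the others. It gave 2 to 3 calls between hemispheres, 4 to 13 for the early and 2 to 14 for the late difference from other interneurons. The cause was not tested.

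The mean share of Lamp5 cells was 18.5% after thinning and 19.8% with at least 3 Lamp5 UMIs, and 22.4% to 23.8% with 1 pool left out. Early minus control turned to 0.335 points after thinning, 0.291 without the left library of control 1 and 1.88 with at least 3 Lamp5 UMIs (-2.68 to 2.41 with 1 pool left out), and trained minus control to 0.328 with at least 3 Lamp5 UMIs (-2.22 to 0.103). Late minus control ran from -4.56 to 0.577 and late minus early from -4.42 to 0.71 with 1 pool left out. The mean reporter share was 7.98% after thinning, 3.48% with at least 2 reporter UMIs, 12.6% with the microglia share subtracted and 17.0% to 20.6% with 1 pool left out. Its late minus control difference turned to 3.69 after thinning, 1.01 without the left library of control 1, 0.547 with at least 3 Lamp5 UMIs, 0.136 with at least 2 reporter UMIs and 0.360 with the microglia share subtracted (-5.33 to 4.63 with 1 pool left out). With 1 pool left out, early minus control ran from 0.915 to 12.7, late minus early from -13.1 to -1.26 and trained minus control from -0.136 to 6.61. The reporter difference from Sst cells turned to 0.147 after thinning and 0.358 with at least 2 reporter UMIs, and that from Vip cells to -1.15 after thinning. With 1 pool left out these differences ran from -4.34 to -1.53 (Sst), 2.65 to 4.27 (Vip), 4.15 to 6.90 (Pvalb) and -2.92 to -1.26 (glutamatergic). The causes were not tested, except that thinning lowers the UMIs per cell.

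Of named genes, Rpl38 (0.43 with no kit class, 0.067 with the replicate block), Rps28 (0.60 and 0.255) and AC121965.1 (0.143 with no kit class) turned between late and early. With 1 pool left out, Gm12346 ran from -1.07 to 1.97 between late and early, and in the late difference from other interneurons Hba-a1 ran from -0.261 to 3.43, Hba-a2 from -0.0337 to 3.9 and Vtn from -5.77 to 2.34. Of the other values of single genes under alternatives, 516 were unchanged, 58 passed the threshold and 57 no longer did. Unchanged means the same direction and side of the threshold for a difference, and within 1 SD for the median level of a Lamp5 marker.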
